A study of Mus musculus domesticus and Mus musculus domesticus x Mus musculus castaneus and Mus musculus castaneus with 10 samples.

Results

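The DNA methylation and demethylation genes described here are Dnmt1, Dnmt3a, Dnmt3b, Dnmt3l, Uhrf1, Tet1, Tet2, Tet3, Dppa3 and Zfp57, taken by symbol from a list of 10 genes and matched to the Ensembl identifiers of the deposited counts. Of these, 9 had a row among the 26808 genes counted, and Dnmt3b was not analysed here. The counts used came from 2 libraries of undifferentiated CAST/EiJ (hereafter CAST) pluripotent stem cells, induced from embryonic fibroblasts with retroviral Oct4, Sox2 and Klf4, grown on irradiated fibroblast feeder cells with serum and LIF, and depleted of feeders before extraction. The series also lists 4 libraries of a 129S6/SvEv embryonic stem cell line and 4 of the 129CAS hybrid line, which were not analysed here, so no strain or cell type was compared and no p-value is given. Nothing in the labels says that the CAST libraries came from separately derived lines, and their batch entries differ, which means that a batch and a replicate cannot be told apart.

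In mammals a methyl group on cytosine is laid down by DNMT3A and DNMT3B, with DNMT3L as a partner that lacks activity of its own, and is copied onto the new strand after replication by DNMT1, which UHRF1 brings to newly replicated sites that carry the mark on 1 strand. TET1, TET2 and TET3 oxidise methylcytosine as a first step of its removal. DPPA3 is known for guarding methylation in the zygote, and ZFP57 for guarding it at imprinted regions. Mouse pluripotent stem cells in serum are known to keep high DNA methylation, whereas the naive state is known for low methylation. The files hold RNA counts, and DNA methylation itself was not measured.

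The libraries held 14460393 and 13728098 counts. Levels are given in CPM, the reads of a gene for every 1000000 counted in that library, and between genes as CPM per kilobase of merged exons of the GRCm38 annotation. At this depth 3 counts equal 0.207 and 0.219 CPM, and each of the 9 genes was above that in both libraries. The 9 pluripotency markers with a row summed to 4376 CPM in replicate 1 and 3790 CPM in replicate 2, and the 10 primed or early differentiation markers to 158 and 170 CPM. All 12 fibroblast feeder markers were above 3 counts in both libraries and summed to 6640.0 CPM in replicate 1 and 4091 CPM in replicate 2. Of these sums, Fn1 gave 2401 and 2002 CPM, Col1a1 1726 and 777 CPM, and Sparc 756 and 706 CPM. The sums thus rest largely on few genes and do not measure the share of either cell type. In these bulk libraries fewer cells of a type and less RNA per cell cannot be told apart.

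Per kilobase, the maintenance pair, Dppa3, Zfp57 and, in replicate 2, Dnmt3l were the high genes, and Tet3 was the low one. The order by mean level was Dppa3, Uhrf1, Dnmt1, Zfp57, Dnmt3l, Tet1, Dnmt3a, Tet2 and Tet3. Both libraries of a gene lay above both libraries of the next in 6 of the 8 neighbouring pairs. The exceptions were Zfp57 with Dnmt3l and Dnmt3l with Tet1, since the 2 values of Dnmt3l spanned those of Dnmt1 and Zfp57 and overlapped those of Tet1. Among the 13824 genes whose counts summed to 10 or more, the mean level per kilobase of Dppa3 was at the 98.5th percentile, that of Dnmt3a at the 61.0th and that of Tet3 at the 14.6th. The levels per kilobase in replicates 1 and 2 were 208 and 153 CPM for Dppa3, 145 and 124 for Uhrf1, 105 and 95.1 for Dnmt1, and 92.8 and 88.8 for Zfp57. They were 38.7 and 23.9 for Tet1, 8.17 and 8.59 for Dnmt3a, 6.63 and 7.98 for Tet2, and 0.646 and 0.253 for Tet3. With the mean length of protein-coding transcripts in place of merged exons, Zfp57 came first and 5 of 9 genes kept their rank.

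**Figure D1:**
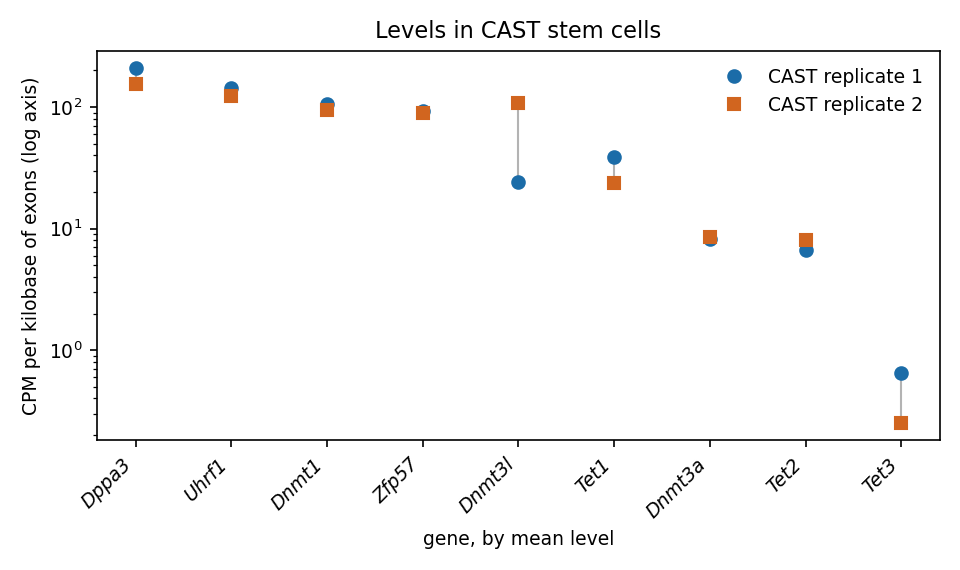
CPM per kilobase of merged exons (log axis) of the 9 genes in CAST replicate 1 (circles) and replicate 2 (squares), ordered by mean, with a line joining the 2 libraries. Dnmt3l spans 24.1 to 108 CPM per kilobase, whereas Tet3 stays under 0.65.

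Dnmt1 (ENSMUSG00000004099, chromosome 9 of GRCm38, 20907209 to 20959888, minus strand), the maintenance methyltransferase, had 11250 counts in replicate 1 and 9630 in replicate 2. These equal 778 CPM (95% exact Poisson interval 764 to 792) and 701 CPM (688 to 716), with a mean of 740 ± 54.1 CPM (SD, n = 2). Poisson intervals here and elsewhere cover counting error only. The libraries were close to each other, with Dnmt1 1.06-fold higher in replicate 1. Per kilobase Dnmt1 stood 12.9-fold above Dnmt3a in replicate 1 and 11.1-fold in replicate 2, and 2.72-fold and 3.98-fold above Tet1. With the mean length of protein-coding transcripts, Dnmt1 was 2.59-fold and 2.22-fold above Dnmt3a, and at 0.942 of Tet1 in replicate 1 and 1.38-fold above it in replicate 2.

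Uhrf1 (ENSMUSG00000001228, chromosome 17, 56303321 to 56323486, plus strand) had 8902 and 7233 counts, or 616 and 527 CPM, with a mean of 571 ± 62.7 CPM (SD, n = 2). Per kilobase it stood above Dnmt1 in both libraries, 1.37-fold in replicate 1 and 1.30-fold in replicate 2. The maintenance pair thus kept nearly the same ratio. Of the 4398 different 75-base stretches in Uhrf1 transcripts, 398 (9.05%) also occur in transcripts of the annotated gene Gm5648, so part of its reads may have been lost as ambiguous and its level is uncertain to that extent.

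Dnmt3a (ENSMUSG00000020661, chromosome 12, 3806007 to 3914443, plus strand), a de novo methyltransferase, had 1965 and 1962 counts. Its level was 136 CPM in replicate 1 and 143 CPM in replicate 2, with a mean of 139 ± 4.97 CPM (SD, n = 2). The 2 libraries were thus alike for Dnmt3a, 1.10-fold higher in replicate 2. Its merged exons share 133 bases (0.799%) with an antisense gene, Dnmt3aos.

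Dnmt3l (ENSMUSG00000000730, chromosome 10, 78041947 to 78063622, plus strand), the catalytically inactive partner, had 1041 counts in replicate 1 and 4416 in replicate 2. Its level was 72.0 CPM (67.7 to 76.5) in replicate 1 and 322 CPM (312 to 331) in replicate 2. Replicate 2 was the high library, and the SD of 177 CPM was close to the mean of 197 CPM (n = 2), so the mean describes neither library. Per kilobase Dnmt3l was 2.95-fold above Dnmt3a in replicate 1 and 12.5-fold above it in replicate 2. With the mean length of protein-coding transcripts these ratios were 0.880 and 3.74, so that in replicate 1 the order of the pair depended on the length used. Of the summed level of Dnmt3a and Dnmt3l, Dnmt3l took 74.7% and 92.6%, with a mean of 83.6%, and of 62.9% with the mean length of protein-coding transcripts.

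Tet1 (ENSMUSG00000047146, chromosome 10, 62804570 to 62908996, minus strand), the TET enzyme known as the main one of mouse stem cells together with Tet2, had 8651 and 5074 counts. These equal 598 CPM (586 to 611) and 370 CPM (360 to 380), with a mean of 484 ± 162 CPM (SD, n = 2), and replicate 1 was the high library. Tet2 (ENSMUSG00000040943, chromosome 3, 133463679 to 133545139, minus strand) had 1618 and 1849 counts, or 112 and 135 CPM, with a mean of 123 ± 16.1 CPM (SD, n = 2). Tet2 thus leaned the other way from Tet1, and per kilobase Tet1 stood 5.84-fold above Tet2 in replicate 1 and 2.995-fold in replicate 2 (3.42-fold and 1.75-fold with the longest transcript).

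Tet3 (ENSMUSG00000034832, chromosome 6, 83362373 to 83459084, minus strand), the TET enzyme known for its part in the zygote and in neurons, had 156 and 58 counts. Its level was 10.8 CPM (9.16 to 12.6) and 4.22 CPM (3.21 to 5.46), with a mean of 7.51 ± 4.64 CPM (SD, n = 2). Per kilobase, Tet2 stood 10.3-fold above Tet3 in replicate 1 and 31.5-fold in replicate 2. Of the summed level of the 3 TET genes per kilobase, Tet1 took 84.2% in replicate 1 and 74.4% in replicate 2. Tet2 took 14.4% and 24.8%, and Tet3 took 1.41% and 0.787%. With the longest transcript as length, the mean share of Tet1 was 69.5% in place of 79.3%.

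Dppa3 (ENSMUSG00000046323, chromosome 6, 122626410 to 122630272, plus strand), also called Stella, had 2677 and 1879 counts, or 185 and 137 CPM, with a mean of 161 ± 34.1 CPM (SD, n = 2). It has the shortest exons of the 9 genes, 892 bases, and 31 of its 817 different 75-base stretches (3.79%) also occur in the pseudogene Dppa3-ps. Zfp57 (ENSMUSG00000036036, chromosome 17, 37001163 to 37010635, plus strand), a zinc finger protein that binds methylated imprinting control regions, had 5080 and 4616 counts. Its level was 351 and 336 CPM, with a mean of 344 ± 10.6 CPM (SD, n = 2). Zfp57 was the gene closest between the libraries after scaling, with a log2 ratio of 0.00.

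Ratios between the libraries were taken as log2 of replicate 1 to replicate 2 on TMM-scaled CPM plus 0.5, so that a positive value means a higher level in replicate 1. With 1 library on each side there is no replicate check, and each ratio describes these libraries. Dnmt3l and Tet3 were at least 2-fold apart, 2 of the 9 genes, 1 in each direction. Over all 13824 genes tested, 9.11% were at least 2-fold apart, 4.98% with replicate 1 higher and 4.13% with replicate 2 higher. All 9 genes averaged 5 CPM or more, and over the 9926 genes that did so the shares were 5.46%, 3.18% and 2.28%. The median log2 ratio of the 9 genes was 0.09, beside 0.00 over all genes tested.

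Dnmt3l had a log2 ratio of -2.21, 4.63-fold higher in replicate 2 (95% exact binomial interval from the counts, 4.35 to 4.98). Of the 9926 genes averaging 5 CPM or more, 13 had a ratio as low or lower, Dnmt3l included. Tet3 had a log2 ratio of 1.20, 2.30-fold higher in replicate 1 (1.80 to 3.37, without the pseudocount), and 0.99 with a pseudocount of 2 CPM, which is under 2-fold. Tet1 had 0.64, 1.55-fold higher in replicate 1 (1.50 to 1.61), and was below the 90th percentile of absolute ratios of those genes, 0.78.

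Dppa3 was 1.30-fold higher in replicate 1 (1.22 to 1.38) and Tet2 1.25-fold higher in replicate 2 (1.17 to 1.34). Uhrf1 was 1.12-fold higher in replicate 1, and Dnmt1, Dnmt3a and Zfp57 were closer still. The median absolute log2 ratio of the 9926 genes was 0.27, and the ratios of these 4 genes were all smaller. Tet1 stood 1.61-fold above Dnmt3l per kilobase in replicate 1, whereas in replicate 2 Tet1 was at 0.222 of Dnmt3l, so the order of these genes depended on the library. The order also differed between the libraries with the other lengths, with ratios of 1.05 and 0.146 for the longest transcript and of 3.12 and 0.432 for the mean length of protein-coding transcripts.

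**Figure D2:**
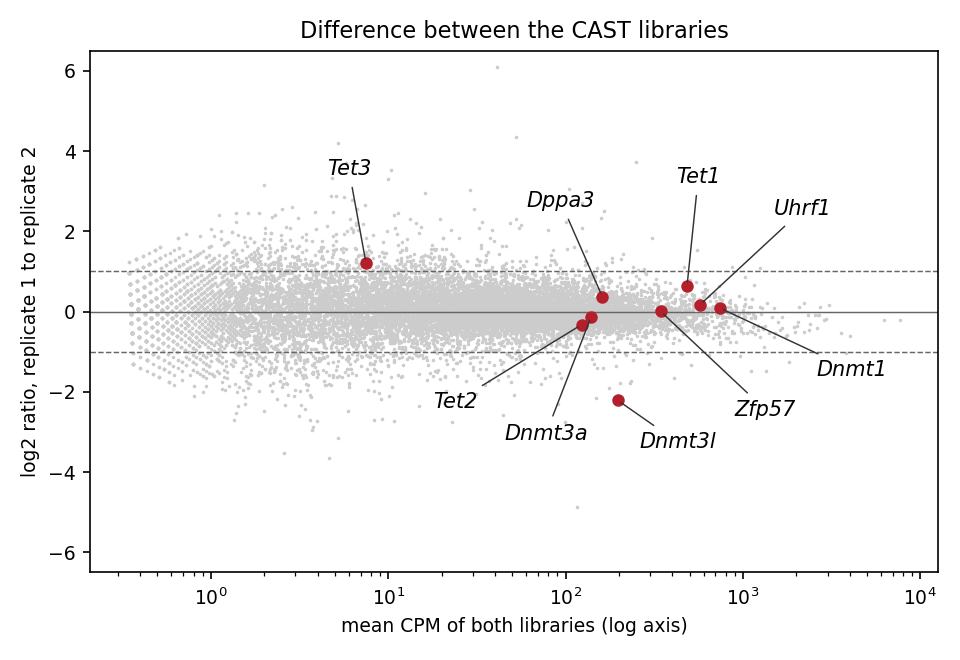
Log2 ratio of CAST replicate 1 to replicate 2 against the mean CPM of both libraries (log axis) for the 13824 genes tested (grey) and the 9 methylation and demethylation genes (red). Dashed lines mark 2-fold. Dnmt3l lies at -2.21 and Tet3 at 1.20, and the other 7 genes lie between the dashed lines.

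Dnmt3l overlaps Aire, an autoimmune regulator known for its part in the thymus, which lies on the opposite strand (chromosome 10, 78030022 to 78043610). Aire had 456 and 2067 counts, and its log2 ratio was -2.30, beside -2.21 for Dnmt3l. The exons shared by the 2 genes span 67 bases, 1.75% of the exons of Aire and 2.24% of those of Dnmt3l. The strand setting of the counting is not given in the sources used here, so reads in the shared bases cannot be assigned to either gene.

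The other 5 genes within 100 kb of Dnmt3l, looked at after these values were seen, were also higher in replicate 2, with log2 ratios from -1.33 to -0.28. Pfkl, a glycolytic phosphofructokinase, had 4325 and 9909 counts, with a log2 ratio of -1.33. Icosl, a ligand of a T cell costimulator, had 181 and 421 counts, with a log2 ratio of -1.32. Trpm2, an ion channel, 1810043G02Rik and D10Jhu81e had log2 ratios of -0.36, -0.30 and -0.28. Their counts were 36 and 44, 86 and 98, and 678 and 751. These ratios were near the median absolute log2 ratio of all genes tested, 0.31. The region around Dnmt3l thus held genes both past and short of 2-fold, with Dnmt3l and Aire the furthest apart.

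Markers of other cells also differed between the same libraries. Of the 12 fibroblast feeder markers, 7 were at least 2-fold higher in replicate 1 and 0 in replicate 2, beside 4.98% and 4.13% of all genes tested. Their median log2 ratio was 1.20. Col1a1, a fibrillar collagen, had 24965 and 10672 counts, and Fbn1, at 1170 and 224 counts, was furthest apart. Sparc, with 10934 and 9696 counts, and Dcn, the lowest of the list with 47 and 44, were near equal. The 9 pluripotency markers had a median log2 ratio of 0.16, with 0 past 2-fold, 6 higher in replicate 1 and 3 in replicate 2. Pou5f1, which encodes OCT4 and was also given by a reprogramming vector, had 7910 and 10033 counts, a log2 ratio of -0.48. The median of the feeder markers has the direction of Tet3 and Tet1 and the opposite of Dnmt3l, with 10 of the 12 higher in replicate 1 and 2 in replicate 2. The part of feeder cells in the ratios of Tet3, Tet1 and Dnmt3l was not tested.

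Genes that act with the enzymes were taken from lists. Over all genes tested 9.11% were at least 2-fold apart, so few or none past 2-fold in lists this short says little. The 6 maintenance partners had a median log2 ratio of -0.03 (0.03 on library totals), and 0 of them were 2-fold apart, as for Dnmt1 and Uhrf1. Pcna, the replication clamp, had 203 and 204 CPM per kilobase. Of the 7 de novo partners with a row, 0 were 2-fold apart, with a median of -0.04 (0.02 on library totals). Ehmt2, an H3K9 methyltransferase, had 70.0 and 92.6 CPM per kilobase. The 7 imprint protection genes had a median of 0.10, with 0 past 2-fold, and Trim28, the corepressor that ZFP57 recruits, was the highest at 694 and 620 CPM per kilobase.

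Among 16 genes of TET partners and base excision with a ratio, the median was -0.34. Of these, 2 were at least 2-fold higher in replicate 2 and 0 in replicate 1, beside 4.13% and 4.98% of all genes tested. The 2 genes were Gadd45b, with 1100 and 3796 counts and a log2 ratio of -1.91, and Gadd45g, with 235 and 598 counts and -1.45. Both encode stress-response proteins that have been linked to demethylation. Parp1, a DNA repair polymerase of poly(ADP-ribose), was the highest of the list at 203 and 179 CPM per kilobase. Of the 8 methyl-CpG readers, 1 was past 2-fold, beside 9.11% of all genes tested. It was Zbtb4, with 102 and 42 counts, and the median of the list was 0.27. Mbd3, a subunit of the NuRD complex, was the highest reader at 101 and 113 CPM per kilobase.

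Germline genes that DNA methylation is known to keep silent outside the germ line were higher in replicate 2, the library with the higher Dnmt3l, in 14 of 15 cases after TMM scaling and in 13 of 15 on library totals. Over all genes tested, 49.6% were higher in replicate 2 after TMM scaling and 44.5% on library totals. Of the 15, 6 were at least 2-fold higher in replicate 2 and 0 in replicate 1, beside 4.13% and 4.98% of all genes tested. The median log2 ratio of the 15 was -0.58. Dazl, an RNA-binding protein of germ cells, had 6104 and 11847 counts, a log2 ratio of -1.09, and was the highest of the list per kilobase. Sycp1, a protein of the synaptonemal complex of meiosis, had 335 and 1039 counts and a log2 ratio of -1.74. Taf7l had 58 and 190 counts, Slc25a31 56 and 141, and Asz1 35 and 79. Brdt was the lowest per kilobase, with 22 and 45 counts.

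The median of the regulators of the naive, low-methylation state had the opposite direction, that of Tet1 and of the fibroblast feeder markers. Of 9 with a row, 6 were higher in replicate 1 and 3 in replicate 2, and the median log2 ratio was 0.56. The 3 higher in replicate 2 were Prdm14, Dppa2 and Dppa4, with log2 ratios of -0.31, -0.14 and -0.36. Those at least 2-fold apart were 3, all higher in replicate 1, beside 4.98% of all genes tested. Tbx3 had 6996 and 1790 counts, a log2 ratio of 1.83, Klf2 had 9293 and 3889, and Klf4 had 4813 and 2018. All 3 encode transcription factors of naive pluripotency, and Klf4 was also given by a reprogramming vector, whose transcripts may be counted with it. Zfp42, a marker also called Rex1, had 8282 and 6770 counts, a log2 ratio of 0.16. The feeder markers had a median log2 ratio of 1.20 beside 0.56 here, and the part of feeder cells in the ratios of the germline genes and the naive regulators was not tested.

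**Figure D3:**
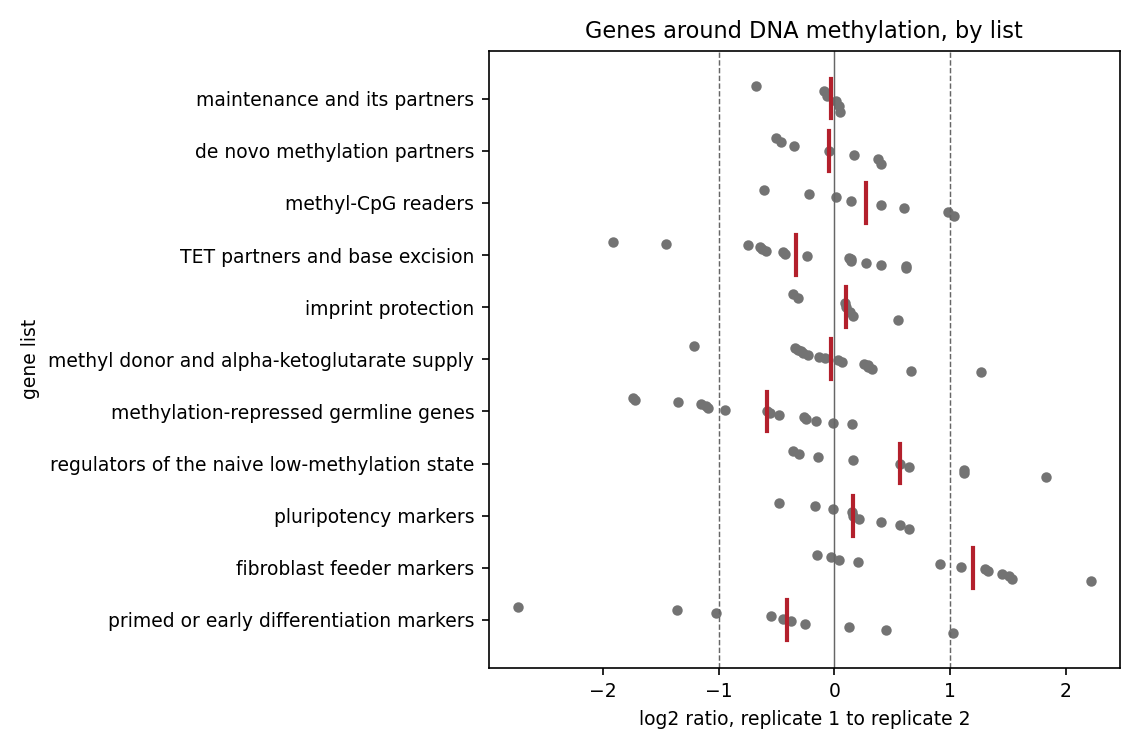
Log2 ratio of CAST replicate 1 to replicate 2 of single genes (grey points) in each list, without the 9 genes themselves, with the list median as a red bar and dashed lines at 2-fold. The median is -0.58 for the germline genes, 0.56 for the naive regulators and 1.20 for the fibroblast feeder markers, and the medians of the other 8 lists lie between -0.58 and 1.20.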

How the data were processed

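RNA of CAST stem cells was made into poly(A) libraries and sequenced as paired-end reads. The authors deposited whole-number read counts per gene without normalization. The paper's methods name STAR, the CAST/EiJ genome and removal of reads that mapped to more than 1 locus, whereas the submitters' processing notes for these libraries name TopHat2 2.1.1, SAMtools and HTSeq with GRCm38, so which of them made the counts is uncertain. The table has 7 other columns of values, left out since no listed sample carries their name.

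Symbols, positions and lengths came from GENCODE M21 (GRCm38). The members and lists were chosen with earlier results of these data known. CPM used library totals. Ratios used TMM sizes from edgeR 4.0.16 in R 4.3.3, 0.5 CPM added to each value, and genes whose counts summed to 10 or more. Binomial and Poisson intervals are exact and cover counting error only. From each list, genes were named if they were 1 of the 2 highest or the lowest per kilobase, among the 4 furthest apart past 2-fold, or at or under 3 counts. Fn1 and the naive regulators higher in replicate 2 were named besides, after their values were seen. Aire and its neighbours were chosen after their values were seen. Alternatives were DESeq2 1.42.0 size factors, library totals, other pseudocounts, filters and lengths, and each library left out. The calculation of the ratio was run on simulated counts, which can check the arithmetic but not the spread between the real libraries. Intervals were computed with scipy 1.17.1 in Python 3.11.15, tables with pandas 2.3.3 and figures with matplotlib 3.10.9.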

Additional observations from a re-analysis of the deposited data

How the results depend on the processing

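With the mean length of protein-coding transcripts, 5 of 9 genes kept their rank per kilobase and the mean share of Dnmt3l in the sum with Dnmt3a was 62.9% in place of 83.6%. With the longest transcript, 7 kept their rank, and the mean shares of Tet1 and Tet2 were 69.5% and 29.1% in place of 79.3% and 19.6%. Some ratios of levels between genes under these lengths, added after seeing the data, stand beside the main ones above. With the longest transcript, Uhrf1 was 1.30-fold and 1.23-fold above Dnmt1 in replicates 1 and 2, and Tet2 12.3-fold and 37.9-fold above Tet3. With the mean length of protein-coding transcripts these ratios were 1.51 and 1.44, and 12.5 and 38.5. Leaving out 1 library kept 6 to 7 ranks and gave shares of 74.7% to 92.6% for Dnmt3l, 74.4% to 84.2% for Tet1, 14.4% to 24.8% for Tet2 and 0.787% to 1.41% for Tet3. A pseudocount of 2 CPM left 1 of the 9 genes past 2-fold, Dnmt3l, and 541 of all genes in place of 1259. With a pseudocount of 0.1 CPM, 2 of the 9 genes and 1811 of all genes were past 2-fold. The filter on a mean of at least 5 CPM, added after seeing the data, left 542 of 9926 genes past 2-fold. The log2 ratio of Dnmt3l was between -2.22 and -2.15 and that of Tet1 between 0.63 and 0.69 under 4 alternatives of scaling and pseudocount. Library totals moved the median of all genes by 0.05 and gave the maintenance, de novo and methyl donor lists medians of 0.03, 0.02 and 0.03 in place of -0.03, -0.04 and -0.03. They also put 1 gene fewer on the side of replicate 2 in the de novo, germline, pluripotency and feeder lists (3, 13, 2 and 1 in place of 4, 14, 3 and 2), a count added after seeing the data. The median of the germline list stayed between -0.67 and -0.54 and that of the naive regulators between 0.56 and 0.62. No paired analysis was possible because counts of only 1 group were analysed here. With 2 libraries the spread within the group rests on 1 difference.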

Other observations

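Of the genes that supply the methyl donor or alpha-ketoglutarate, the cofactor of the TET enzymes, 16 had a ratio, of which 8 were higher in each library, and the median log2 ratio was -0.03 (0.03 on library totals). Gnmt, which consumes the methyl donor, had 34 and 81 counts in replicates 1 and 2, a log2 ratio of -1.22. Ahcy, which removes the product of methyl transfer, was the highest of the list at 231 and 212 CPM per kilobase. Of the 10 primed or early differentiation markers, 3 were at least 2-fold higher in replicate 2 and 1 in replicate 1. The shares over all genes tested were 4.13% and 4.98%. The median log2 ratio of the 10 markers was -0.41. Gata6, a marker of primitive endoderm, had 10 and 99 counts, a log2 ratio of -2.74. Of the 9 markers of the 2-cell-like state, 1 had a row, Zfp352, with 3 and 2 counts.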
